A study of Mus musculus with 96 samples.

Results

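Acat2, Hmgcs1, Mvk, Pmvk, Mvd, Idi1, Fdps and Ggps1 encode the enzymes that turn acetyl-CoA into farnesyl and geranylgeranyl diphosphate, the mevalonate arm of cholesterol synthesis. The genes were taken by name, each represented by its transcript of highest mean, and all 8 of 8 were found among the 25095 gene symbols of every table. They were followed by genotype and zeitgeber time (ZT, counted in hours from lights on, so that the dark phase starts at ZT12) in bulk RNA-Seq of isolated hepatocytes and liver macrophages (LMs).

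The series held 96 libraries in 32 groups of 3, from 4 labelled genotypes at ZT4, ZT10, ZT16 and ZT22. All mice were male C57BL/6J and ate a 4-week high fat and sucrose diet. Per the study's methods, mice with floxed Nr1d1 and Nr1d2 (encoding REV-ERBα and REV-ERBβ), with or without floxed Scap, received at 8 weeks of age an adeno-associated virus with the hepatocyte TBG promoter, which carried GFP for Control and Cre for the deletions. RevDKO (ReverbhDKO) stands for deletion of both REV-ERB genes, RevScapTKO (Reverb/ScaphTKO) for deletion of these and Scap, and ScapKO (ScaphKO) for deletion of Scap alone, for which the virus was not described in the sources used here. LMs were isolated from livers of such mice, so the genes were not targeted in the LMs themselves. The 12 ScapKO hepatocyte libraries are hepatocytes by their titles but liver macrophages by their cell type labels, and were read here by title.

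The pathway begins in the cytosol, where acetyl-CoA is joined into HMG-CoA, which is turned into mevalonate. Mevalonate is then phosphorylated, decarboxylated to an isoprene unit and condensed to farnesyl diphosphate, from which squalene and sterols, or longer isoprenoids that anchor proteins to membranes, are made. In liver the genes of cholesterol synthesis are classical targets of SREBP2, a transcription factor that SCAP escorts from the endoplasmic reticulum to the Golgi for cleavage when sterols are low.

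The promoters of 4 of these genes are shown because the CCAAT box, bound by the factor NF-Y that often acts beside SREBPs, can be read in each of them, Ggps1 included, the gene that does not follow the others below, whereas a motif that SREBPs recognise was read in Hmgcs1 alone. They are the 250 bases before the start site in the RefSeq promoter table (build GRCm38.p6), which held 7 of the 8 genes, and they were placed in mm9, the build of the deposited tables, by exact match. Mvk lies at chr5:114894028-114894277 (plus strand), Mvd at chr8:124967323-124967572 (minus strand) and Ggps1 at chr13:14155756-14156005 (minus strand), each ending at the base before the transcript start of the tables. The Hmgcs1 promoter matched 2 places in mm9, both on unplaced contigs. Capitals mark TCACNCCAC (sterol regulatory element), CCAAT or its reverse complement ATTGG, and AGGTCA (the core sequence that REV-ERB and ROR receptors bind) or its reverse complement TGACCT.
Hmgcs1: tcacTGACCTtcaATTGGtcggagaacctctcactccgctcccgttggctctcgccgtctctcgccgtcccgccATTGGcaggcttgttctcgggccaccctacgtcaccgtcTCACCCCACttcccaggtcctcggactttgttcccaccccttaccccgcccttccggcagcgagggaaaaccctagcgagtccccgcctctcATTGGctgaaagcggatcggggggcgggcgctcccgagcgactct
Mvk: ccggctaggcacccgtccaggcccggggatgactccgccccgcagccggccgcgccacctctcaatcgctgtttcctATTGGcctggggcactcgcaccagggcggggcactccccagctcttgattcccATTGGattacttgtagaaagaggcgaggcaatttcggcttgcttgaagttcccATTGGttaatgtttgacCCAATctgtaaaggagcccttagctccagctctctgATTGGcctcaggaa
Mvd: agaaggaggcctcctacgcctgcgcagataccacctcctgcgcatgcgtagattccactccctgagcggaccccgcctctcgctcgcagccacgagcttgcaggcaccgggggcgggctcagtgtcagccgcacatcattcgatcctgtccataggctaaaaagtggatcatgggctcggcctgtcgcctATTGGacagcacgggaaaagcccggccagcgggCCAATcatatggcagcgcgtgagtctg
Ggps1: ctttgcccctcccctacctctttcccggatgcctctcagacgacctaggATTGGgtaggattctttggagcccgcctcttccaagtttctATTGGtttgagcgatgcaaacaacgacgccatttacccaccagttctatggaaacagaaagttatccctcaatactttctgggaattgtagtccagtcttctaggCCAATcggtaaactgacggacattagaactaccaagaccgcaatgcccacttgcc

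On both strands and without overlap between these motifs, TCACNCCAC was read in 1 of the 7 genes, Hmgcs1, at 137 to 129 bases before the start, and in 1.05% of all 32851 promoters of the table. CCAAT was read in 6 of the 7 genes, all but Acat2, and in 33.8% of all promoters. The Mvk promoter held 5, of which the 4 in reverse orientation started 173, 120, 67 and 14 bases upstream, at a constant spacing of 53 bases. At least 5 were read in 0.213% of all promoters. Ggps1 held 3, a number reached by 2.79% of promoters, and Mvd held 2. The Sp1 motif GGGCGG was read in 5 genes (Acat2, Hmgcs1, Mvk, Mvd and Idi1) and in 32.7% of promoters, AGGTCA in Hmgcs1 alone and in 14%, and the E-box CACGTG in none of the 7 and in 6.02%. The start of Mmab, which encodes a cobalamin adenosyltransferase, lies 242 bases from that of Mvk on the other strand, within the window shown.

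Scap transcripts followed their label. In hepatocytes the mean was 495 RPKTM (reads per kb of transcript, scaled to 10 times an RPKM) in Control, 536 in RevDKO and 209 in RevScapTKO, a difference of -1.40 in log2 between the last 2 (adjusted p = 9.77e-09, limma with Benjamini-Hochberg adjustment). Nr1d1 did not: its median was 45.9 in Control and 91.3 in the libraries labelled RevDKO, a difference of 1.55 (SE 0.25, adjusted p = 8.87e-05). Nr1d2 was not lower either, with medians of 218 RPKTM in Control and 320 in RevDKO. Values over a whole transcript do not check the deleted part, and RevDKO is read below as a label. All 10 hepatocyte markers were found, with median sums of 575927 to 652264 RPKTM in hepatocytes. Macrophage markers had median sums of 841, 1044 and 2816 RPKTM in Control, RevDKO and RevScapTKO hepatocytes, and endothelial markers 1003, 1144 and 1881. In LM libraries the hepatocyte markers summed to medians of 99758, 88700 and 100295 RPKTM in the same order, more than the macrophage markers at 16661, 8584 and 9245. Without albumin the hepatocyte markers summed to medians of 34585, 39209 and 28974 RPKTM. Depth was unknown, since every column of a table held the same set of values after normalization. In bulk RNA, fewer cells of a type and less RNA per cell cannot be told apart.

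In Control hepatocytes the 8 genes spanned a wide range of levels. Fdps (mm9 chr3:88897510-88905889), whose enzyme makes farnesyl diphosphate at the branch of sterols and isoprenoids, was the highest at 310 ± 104 RPKTM (SD, n = 12), with a median at the 94.0 percentile of all genes. Acat2 (chr17:13135908-13153591), the cytosolic thiolase that makes acetoacetyl-CoA, followed at 155 ± 50.5, and Pmvk (chr3:89263040-89272931), phosphomevalonate kinase, at 125 ± 42.6. Mvd (chr8:124957496-124967322), the decarboxylase that yields isopentenyl diphosphate, stood at 81.1 ± 34.0 and Mvk (chr5:114894278-114910599), mevalonate kinase, at 66.0 ± 26.6.

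Ggps1 (chr13:14142057-14155755), which extends farnesyl to geranylgeranyl diphosphate, was at 57.0 ± 10.5 RPKTM and Idi1 (chr13:8884852-8891642), the isomerase that interconverts the isoprene units, at 35.5 ± 17.3. Hmgcs1, cytosolic HMG-CoA synthase, was the lowest at 7.47 ± 5.57, with a median at the 53.2 percentile. Hmgcs1 was counted in the deposited tables on an unplaced contig of chromosome 13 and its sequence occurs 2 times in the build, so its level is uncertain if reads were shared between copies. Acat2 and Idi1 have the close relatives Acat3 and Idi2, and Fdps has processed copies, with the same uncertainty. In this order of levels, neighbours overlapped within 1 SD except Fdps with Acat2 and Idi1 with Hmgcs1.

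All of these enzymes but Ggps1 were far lower in RevScapTKO than in RevDKO hepatocytes. Idi1 fell to 1.85% and Fdps to 3.55% of the RevDKO mean, and Acat2 fell least, to 28.7%. Of the 8 genes 7 were lower in the mean over the day and 0 higher, beside 12.7% of all 13326 genes tested called lower (adjusted p under 0.05, limma with Benjamini-Hochberg adjustment). Hmgcs1 and Idi1 passed the filter on low values only through Control and RevDKO libraries, since in RevScapTKO they reached at most 2.61 and 2.77 RPKTM. The median difference of the 8 was -2.80 in log2(RPKTM + 1), a scale that understates the change of low genes, and that of all genes was -0.03. The plot of the 8 genes by zeitgeber time shows the RevScapTKO points apart from the others at every time for 6 genes.

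**Figure D1:**
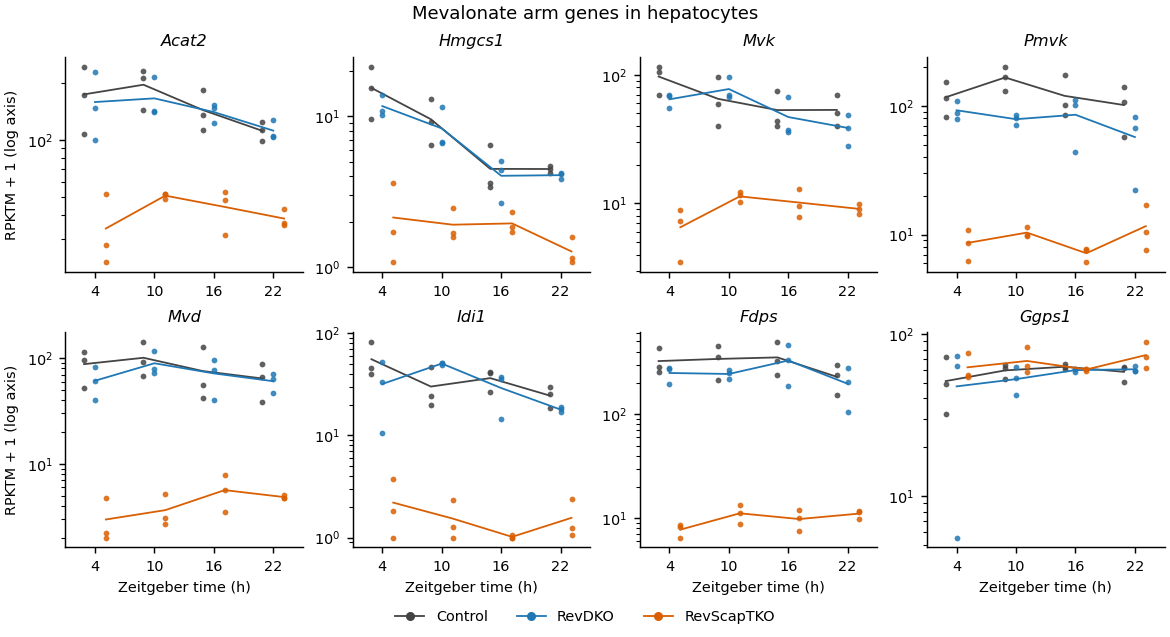
RPKTM + 1 on a log axis against zeitgeber time (h) for the 8 mevalonate arm genes in hepatocytes. Points are single libraries (3 per genotype and time) and lines join the time point means; RevScapTKO lies below Control and RevDKO for all genes but Ggps1, and its 12 Fdps values stay between 5.54 and 12.5 RPKTM.

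For Acat2, the RevDKO libraries ranged from 99.2 to 226 RPKTM (median 139) and the RevScapTKO libraries from 21.7 to 52.3 (median 44.7), with no overlap. The difference was -1.78 (SE 0.15, adjusted p = 8.72e-11). Acat2 kept the highest level of the 7 genes that fell.

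Hmgcs1 ranged from 1.64 to 12.8 RPKTM (median 4.81) in RevDKO and from 0.073 to 2.61 (median 0.688) in RevScapTKO, and here the groups overlapped. The difference of -1.86 (SE 0.21, adjusted p = 5.53e-08) depends on the pseudocount: it was -2.93 with 0.1 and -0.54 with 10, and it stayed past the threshold in both.

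Mevalonate kinase and phosphomevalonate kinase act in sequence and both fell. Mvk went from 27.2 to 94.7 RPKTM (median 59.8) in RevDKO to 2.48 to 11.95 (median 8.29) in RevScapTKO, without overlap, a difference of -2.60 (SE 0.17, adjusted p = 1.66e-13). Pmvk went from 21.1 to 110 (median 81.1) to 5.09 to 15.9 (median 8.17), also without overlap, a difference of -3.01 (SE 0.20, adjusted p = 2.70e-13). The lowest RevDKO library for Pmvk, ZT22 replicate 2, lay close above the highest RevScapTKO library.

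Mvd and Idi1, the steps that make and isomerise isopentenyl diphosphate, fell further. Mvd ranged from 39.5 to 116 RPKTM (median 70.6) in RevDKO and from 1.01 to 6.79 (median 3.71) in RevScapTKO, a difference of -4.08 (SE 0.21, adjusted p = 5.07e-16). Idi1 ranged from 9.46 to 50.8 (median 33.3) in RevDKO, while in RevScapTKO it was listed at 0 in 4 libraries and reached at most 2.77 (median 0.141), a difference of -4.31 (SE 0.24, adjusted p = 5.16e-15). The 2 genotypes did not overlap for either gene. The size of the Idi1 difference also rests on the pseudocount, at -6.37 with 0.1 and -1.86 with 10.

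Fdps ranged from 105 to 466 RPKTM (median 256) in RevDKO and from 5.54 to 12.5 (median 8.97) in RevScapTKO. The difference was -4.62 (SE 0.17, adjusted p = 5.43e-20), the largest of the 8 with pseudocounts of 1 and 10 (with 0.1, Idi1 differed by -6.37 and Fdps by -4.76), and the time points gave -4.99, -4.46, -4.99 and -4.04 at ZT4, ZT10, ZT16 and ZT22. From the highest level of the 8 genes in Control, Fdps came to a level near that of Mvk and Pmvk in RevScapTKO, and its median percentile among genes went from 93.1 in RevDKO to 57.0.

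Ggps1 did not pass the test. Its 12 RevDKO libraries ranged from 4.53 to 72.3 RPKTM (median 58.9) and its RevScapTKO libraries from 53.2 to 88.1 (median 60.2), and the groups overlapped. The low value of 4.53 came from a single library, RevDKO ZT4 replicate 2. The difference was 0.43 (95% interval -0.06 to 0.92, adjusted p = 0.191), which does not show that the levels are alike. Without that library it was 0.13 and did not pass, and without RevDKO ZT4 replicate 3 it was 0.59 and passed the threshold. In RevScapTKO hepatocytes Ggps1 had the highest level of the 8 genes, where it was the sixth in Control.

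In the mean over the day, the transcript differences grew in the order of the reactions, from Acat2 to Fdps. This order was noticed after the values were seen, neighbouring intervals overlap except those of Pmvk and Mvd, and it was not kept for Hmgcs1 and Idi1, the genes of lowest level, with a pseudocount of 0.1 or 10. Among Acat2, Mvk, Pmvk, Mvd and Fdps it was the same with all 3 pseudocounts in the mean over the day. No single time point kept the whole order. Idi1 differed less than Mvd at ZT4 (-3.78 and -4.41) and ZT22 (-3.61 and -3.62). At ZT10 Fdps (-4.46) differed less than Mvd (-4.64) and Idi1 (-5.13), and at ZT16 Hmgcs1 (-1.01) less than Acat2 (-1.68). The order was not seen in LMs, where Acat2 differed by -1.996 and Idi1 by -1.67.

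The libraries of RevScapTKO hepatocytes carried more transcripts of other liver cells than those of RevDKO, as given above for macrophage markers. With the macrophage marker score as a covariate, the same 7 genes were lower, by -1.41 for Acat2 to -4.54 for Fdps, while the genes called in this contrast over the whole table went from 3498 to 352. Leaving out any single library kept at least 7 of the 8 calls.

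**Figure D2:**
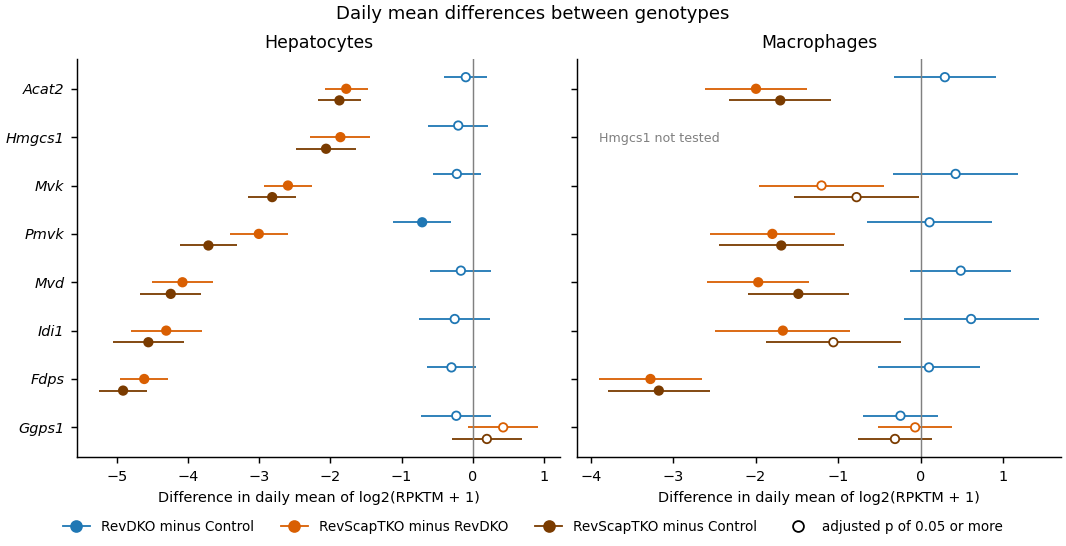
Difference in the daily mean of log2(RPKTM + 1) between genotypes for each gene, with 95% intervals, in hepatocytes and LMs. Filled points have an adjusted p under 0.05; in hepatocytes the RevScapTKO contrasts run from about -1.78 for Acat2 to -4.92 for Fdps and Ggps1 lies near 0, and Hmgcs1 was not tested in LMs.

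The genes were lower at each time of day. Of the 32 pairs of a gene and a time point in RevScapTKO minus RevDKO, 27 were lower, with 7 genes at ZT4, ZT10 and ZT22 and 6 at ZT16. The share of all genes called lower at these times was 4.86% at ZT4, 0.735% at ZT10, 1.14% at ZT16 and 1.78% at ZT22. The gene missing at ZT16 was Hmgcs1, where RevDKO held 3.40, 4.03 and 1.64 RPKTM and RevScapTKO 0.841, 0.694 and 1.30. RevDKO was itself at a low point there, and the difference of -1.01 had an adjusted p of 0.298. The Hmgcs1 call at ZT22 was lost without RevDKO replicates 1 or 2 or RevScapTKO replicates 1 or 3 of that time, with a pseudocount of 10, with only these genotypes in the fit and with the macrophage marker score, and the Acat2 call at ZT22 was lost with that score.

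Against Control, RevScapTKO hepatocytes gave the same picture: 7 of the 8 genes were lower, beside 18.7% of all genes, and the median difference of the 8 was -3.27. This comparison shares the RevScapTKO libraries with the one above. The differences were -1.87 for Acat2, -2.06 for Hmgcs1, -2.82 for Mvk, -3.72 for Pmvk, -4.25 for Mvd, -4.56 for Idi1 and -4.92 for Fdps. Ggps1 differed by 0.20 (adjusted p = 0.542). By time point 27 of the 32 pairs were lower, where 9.61% of all genes were called lower at ZT4, 2.33% at ZT10, 2.27% at ZT16 and 2.49% at ZT22. All 12 RevScapTKO libraries were below all 12 libraries of the other genotype for 6 of the 8 genes in both comparisons, a separation met by 0.69% of genes against RevDKO and 0.765% against Control. Hmgcs1, whose highest RevScapTKO library (2.61 RPKTM at ZT4) exceeded the lowest Control library (2.40), and Ggps1 were the genes that overlapped.

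Between RevDKO and Control hepatocytes few differences in the mevalonate arm passed the test. Of the 8 genes 1, Pmvk, was lower and 0 were higher, beside 2.43% of all genes called lower and 4.43% in either direction. Pmvk ranged from 56.1 to 201 RPKTM (median 122) in Control and from 21.1 to 110 (median 81.1) in RevDKO, with much overlap. The difference was -0.71 (SE 0.20, adjusted p = 0.0321). It was widest at ZT10, where Control held 201, 166 and 131 and RevDKO 80.3, 69.9 and 83.8, all RevDKO values below all Control values. That time point on its own gave -1.06 with an adjusted p of 0.320.

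The Pmvk call depended on single libraries. It was lost in 11 of the 36 fits that left out 1 library, in which the difference stayed between -0.80 and -0.56, and without the filter on low values its adjusted p was 0.0714. The 11 were Control ZT4 replicates 1 and 2, ZT10 replicates 1 and 2, ZT16 replicate 3 and ZT22 replicates 2 and 3, and RevDKO replicate 2 at ZT4, ZT10 and ZT22 and replicate 3 at ZT16.

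The other 7 genes differed by -0.10 for Acat2 to -0.30 for Fdps, and none passed the test at an unadjusted p under 0.05. Their medians were 138 and 139 RPKTM for Acat2, 63.6 and 59.8 for Mvk and 289 and 256 for Fdps in Control and RevDKO. Of the 32 pairs of gene and time point 0 passed with limma, 3 had an unadjusted p under 0.05, and the share of all genes called lower was 0.173% at ZT4, 0.495% at ZT10, 0.15% at ZT16 and 0.225% at ZT22.

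Hmgcs1 had the clearest daily course. In Control hepatocytes the 3 libraries held 20.2, 14.4 and 8.54 RPKTM at ZT4 and 8.18, 12.1 and 5.40 at ZT10. They held 2.58, 2.40 and 5.43 at ZT16 and 3.68, 3.23 and 3.48 at ZT22, so the light phase was high and the dark phase low, with ZT10 and ZT16 overlapping by a single library each. With the 12 libraries entered 2 times, JTK_CYCLE, a rank test of 24 h patterns, gave an exact p = 1.41e-05 and a peak at ZT7. Entered once, they gave a JTK_CYCLE p of 0.00659, or 0.151 after adjustment over all genes. The ratio between the highest and lowest time point means was 4.16.

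In RevDKO hepatocytes the course of Hmgcs1 was close to that in Control. The values were 12.8, 9.26 and 9.89 RPKTM at ZT4, 10.5, 5.59 and 5.76 at ZT10, 3.40, 4.03 and 1.64 at ZT16 and 3.23, 3.10 and 2.85 at ZT22. Here all light phase libraries were above all dark phase libraries. The exact JTK_CYCLE p with the series entered 2 times was 0.000472, with the peak again at ZT7 and a ratio of 3.53. With the series entered once, the JTK_CYCLE p was 0.0418, or 0.280 after adjustment over all genes. In RevScapTKO, Hmgcs1 was too low to be tested for a rhythm.

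By JTK_CYCLE with the time series entered 2 times, 2 of the 8 genes were rhythmic in Control hepatocytes, beside 27.5% of all genes. These were Hmgcs1 and Acat2 (exact p = 0.0157, peak ZT10). In RevDKO 3 were rhythmic, beside 27.9%: Hmgcs1, Mvk (exact p = 0.000472, peak ZT10) and Idi1 (exact p = 0.0320, peak ZT13). In RevScapTKO 1 was rhythmic, beside 18.3%, namely Mvk (exact p = 0.0157, peak ZT16), between 2.48 and 11.95 RPKTM. Hmgcs1, Mvd and Idi1 were too low in RevScapTKO to be tested, while the background counts tested genes only. With so few genes, these counts were not read as a difference from the background.

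Entering the series again makes p smaller without adding data. With the series entered once, 1 gene was rhythmic in Control (Hmgcs1, exact p = 0.00659), 2 in RevDKO (Hmgcs1 and Mvk, both exact p = 0.0418) and 0 in RevScapTKO, and with adjustment over all genes 0 in each. Of all genes, 10.6%, 9.48% and 3.38% were called with the series entered once, in the same order. With adjustment these shares were 0.0619%, 0.0% and 0.0%. The tests of a changed rhythm called 0 of the 8 genes in both contrasts. For RevDKO minus Control, 0.203% of all genes were called and 0 of the 8 had an unadjusted p under 0.05. For RevScapTKO minus RevDKO 0.0% of genes were called, and 3 of the 8 (Hmgcs1, Mvk and Idi1) had an unadjusted limma p under 0.05, each with an adjusted p of 0.944. The fitted peak-to-trough difference of Hmgcs1 was 1.86 in RevDKO and 0.59 in RevScapTKO, on the log2 scale.

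The reactions on either side of the mevalonate arm separated in the same way as its members. Of 13 genes of the later sterol arm, from squalene synthase (Fdft1) onward, 12 were lower in RevScapTKO than in RevDKO hepatocytes, with a median of -2.41 against -0.03 for all genes. Sqle, squalene epoxidase, fell by 5.46, and Ebp, sterol isomerase, at -0.54 (adjusted p = 0.122), did not pass. Of 13 genes of the isoprenoid side branches (ubiquinone, dolichol and protein prenylation) 0 passed with limma and 1 had an unadjusted p under 0.05, with a median of -0.02. These genes draw on the product of Fdps and Ggps1, and their largest difference was that of Fnta, a prenyltransferase subunit, at -0.45 (adjusted p = 0.118).

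Other enzymes of acyl-CoA and isoprene chemistry, related to the members by their reactions, did not pass the test. Of 4 tested genes of this kind 0 passed with limma and 2 had an unadjusted p under 0.05, with -0.40 for Acat1, the mitochondrial thiolase (adjusted p = 0.0639). Among 7 genes of the SREBP system, Srebf1 (-4.07), Srebf2 (-1.43), Insig1 (-4.18) and Scap itself were lower in RevScapTKO than in RevDKO, and Insig2, Mbtps1 and Mbtps2 did not pass.

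Of the genes that start within 1000 bases of a member on the other strand, Mmab, the neighbour of Mvk, was lower in RevScapTKO than in RevDKO by -2.24 (adjusted p = 3.69e-11), near the -2.60 of Mvk. The non-coding 9330133O14Rik beside Mvd, 234 bases away and at a mean of 3.65 RPKTM, differed by -0.91 (adjusted p = 0.0335). Arid4b, 296 bases from Ggps1, differed by 0.40 (adjusted p = 0.0927), close to the value of Ggps1. The annotated transcripts overlapped by 0 bases in each of these pairs, and whether counting used the strand was not stated.

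Over the 36 hepatocyte libraries, the genes whose log2 values followed the mean of the 8 most closely were Msmo1 and Fdft1 (Pearson r 0.97 each), followed by Cyp51 and Sqle (0.96 each), of 13318 genes compared. These 4 genes encode enzymes of sterol synthesis. These r are over libraries that share genotypes, with RevScapTKO low in all of these genes. Ggps1 itself had an r of -0.12. Within the 24 Control and RevDKO libraries Msmo1 (0.82) and Fdft1 (0.79) again came first, followed by Car3 (0.72), Mrps15 (0.71) and Tnfaip8l3 (0.71).

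In LMs several genes of the mevalonate arm were again lower in RevScapTKO. Of 7 genes tested 5 were lower than in RevDKO (Acat2, Pmvk, Mvd, Idi1 and Fdps), beside 1.78% of 13947 genes. Among these, Idi1 entered the test only through Control and RevDKO libraries, so its call is not independent of the filter. Against Control 4 of 7 were lower (Acat2, Pmvk, Mvd and Fdps), beside 1.38%. Hmgcs1 never exceeded 5 RPKTM and was not tested, with medians of 0.482, 0.564 and 0.0625 RPKTM in Control, RevDKO and RevScapTKO.

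Fdps had the largest difference. Its LM values ranged from 18.3 to 127 RPKTM (median 53.1) in Control, from 7.98 to 133 (median 71.1) in RevDKO and from 2.34 to 8.86 (median 5.60) in RevScapTKO. All RevScapTKO libraries were below all Control libraries, and a single RevDKO library, ZT10 replicate 2, overlapped with them. The difference was -3.28 against RevDKO (SE 0.30, adjusted p = 4.76e-09) and -3.17 against Control (adjusted p = 6.56e-09).

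Acat2 had medians of 17.7, 27.6 and 6.14 RPKTM in Control, RevDKO and RevScapTKO LMs, and ranged from 4.41 to 88.6 in RevDKO and from 0 to 10.6 in RevScapTKO. The groups overlapped through RevDKO ZT4 replicate 1. The difference was -1.996 against RevDKO (SE 0.30, adjusted p = 5.33e-05) and -1.70 against Control (adjusted p = 0.000514).

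The kinases behaved unequally. Pmvk, at medians of 18.7, 24.7 and 6.54 RPKTM, was lower by -1.80 against RevDKO (adjusted p = 0.00299) and -1.69 against Control (adjusted p = 0.00545), and did not overlap with Control. Mvk, at medians of 14.6, 16.4 and 6.40, differed by -1.20 against RevDKO (adjusted p = 0.0698) and did not pass. Without Control ZT22 replicate 2 (Mvk listed at 0) or replicate 3 of the same time, the Mvk difference passed.

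Mvd, at medians of 21.2, 27.6 and 6.12 RPKTM, was lower by -1.97 against RevDKO (adjusted p = 5.71e-05) and -1.48 against Control (adjusted p = 0.00249). Idi1 was low in every genotype, at medians of 1.99, 4.62 and 0.143 and listed at 0 in 2, 2 and 5 libraries, with a difference of -1.67 against RevDKO (adjusted p = 0.0139) and -1.06 against Control (adjusted p = 0.148). It passed the filter on low values with 6 of 36 libraries over 5 RPKTM, none of them RevScapTKO, where it reached at most 1.35. Ggps1 stood at 31.1 ± 9.04, 27.4 ± 11.8 and 24.8 ± 6.10 (SD, n = 12 each) and differed by -0.07 (adjusted p = 0.916). The share of genes with complete separation was 0.129% against Control, where it held for Pmvk and Fdps, and 0.143% against RevDKO, where it held for 0 of the 8.

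By time point in LMs, 4 of the pairs of gene and time passed in RevScapTKO minus RevDKO, where 0.1%, 0.136%, 0.172% and 0.265% of all genes were called lower at ZT4, ZT10, ZT16 and ZT22. These were Fdps at ZT4, ZT16 and ZT22 and Acat2 at ZT22 (-3.80, adjusted p = 0.000735), where RevDKO held 46.1, 88.6 and 30.8 RPKTM and RevScapTKO 0, 6.62 and 5.47. Against Control 4 passed, Fdps at all 4 times, where 0.215%, 0.151%, 0.158% and 0.108% of genes were called lower in the same order. The Fdps call at ZT4 against RevDKO was lost without RevDKO replicates 1 or 3 or RevScapTKO replicates 1 or 3 of that time. Against Control, the Fdps call at ZT10 was lost without any Control replicate of that time or RevScapTKO replicates 2 or 3, and the call at ZT22 without Control replicates 2 or 3 or RevScapTKO replicates 1 or 3. Without the filter on low values the Fdps calls at ZT4 against RevDKO and at ZT10 and ZT22 against Control were lost, and the ZT10 call also with a pseudocount of 10 or rescaling. In RevDKO minus Control 0 of 7 genes passed by day and 0 pairs by time. The smallest adjusted p was 0.477 (Mvd), 0 had an unadjusted p under 0.05 by day and 1 pair by time, and 0.172% of all genes were called lower by day and 0.574% in either direction. At the 4 times 0.0%, 0.0215%, 0.0359% and 0.0% of genes were called lower.

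Hepatocyte transcripts stood beside this result. The hepatocyte marker sum of the LM libraries was 15.3%, 15.4% and 16.8% of the hepatocyte median in Control, RevDKO and RevScapTKO. Without albumin, whose value is set by its rank in these normalized columns, it was 12.9%, 14.3% and 11.7% in the same order. In Control LMs the median of a member was 5.93% of its hepatocyte median for Idi1, 8.91% for Hmgcs1 and 12.8% for Acat2. It was 15.3% for Pmvk, 18.4% for Fdps, 22.9% for Mvk, 27.4% for Mvd and 49.7% for Ggps1, across tables normalized apart. The shares of Idi1 and Hmgcs1 lay below those of the hepatocyte markers, and that of Acat2 was close to the share without albumin. In RevScapTKO the member share was 9.08% for Hmgcs1, 13.7% for Acat2, 41.9% for Ggps1 and 62.4% for Fdps. It was 77.2% for Mvk, 80.0% for Pmvk and 165% for Mvd. For Idi1 the RevScapTKO medians were 0.143 RPKTM in LMs and 0.141 in hepatocytes. The part of hepatocyte RNA in the LM differences was not tested, beyond a fit with the hepatocyte marker score as a covariate. In that fit Acat2, Mvd, Idi1 and Fdps stayed lower than in RevDKO, and Pmvk, at -1.42 with an adjusted p of 0.0539, did not pass. In 3 LM libraries albumin took over 10% of the normalized total. They were Control ZT16 replicate 1 (13.7%), Control ZT22 replicate 1 (27.5%) and RevScapTKO ZT22 replicate 3 (13.7%). As every column held the same values, these figures reflect the rank of albumin and are not measured shares. Without albumin, the hepatocyte marker sum was at most 40777 RPKTM in any RevScapTKO and 59584 in any RevDKO LM library. Its highest value in Control was 802425, beside a median of 34585. With albumin, the highest Control sum was that of ZT22 replicate 1. Without these 3 libraries, 5 of 7 genes were lower against RevDKO and 4 against Control.

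The neighbouring lists moved alike in LMs. Of the 13 genes of the later sterol arm 12 were lower in RevScapTKO than in RevDKO (median -1.73), and of the 13 of the side branches 0 passed and 0 had an unadjusted p under 0.05. Srebf1 fell by 3.17 and Insig1 by 2.41, while Scap, at -0.54 (adjusted p = 0.127), did not pass.

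Rhythms of the 8 genes in LMs were few. By JTK_CYCLE with the series entered 2 times, 0 were rhythmic in Control (17.8% of all genes), 1 in RevDKO (25.3%) and 2 in RevScapTKO (13.5%). The gene in RevDKO was Fdps (exact p = 5.05e-05, peak ZT22), at 64.3, 20.3 and 65.9 RPKTM at ZT4, 54.9, 7.98 and 48.5 at ZT10, 133, 76.3 and 81.7 at ZT16 and 96.4, 121 and 81.5 at ZT22. All its dark phase values were above all its light phase values, and with the series entered once the exact p was 0.0130. In RevScapTKO they were Mvk (exact p = 0.00126, peak ZT19) and Mvd (exact p = 0.0157, peak ZT4), at 2.44 to 10.5 and 2.70 to 16.7 RPKTM. The tests of a changed rhythm called 0 of the 7 genes in both contrasts, with 0 at an unadjusted p under 0.05, and 0.0% of all genes.

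The ScapKO tables were normalized apart from the others, and no test was run across tables. A single time and replicate number stood apart in both, ZT22 replicate 2. The hepatocyte library held 1006 RPKTM of Scap against 205 to 380 in the other 11, and the LM library held 1371 RPKTM of Adgre1, which encodes the macrophage antigen F4/80, where the others held 4871 or more. Hepatocyte ZT16 replicate 3 held 130 RPKTM of Xist although labelled male, where the other 11 held at most 15.0.

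**Figure D3:**
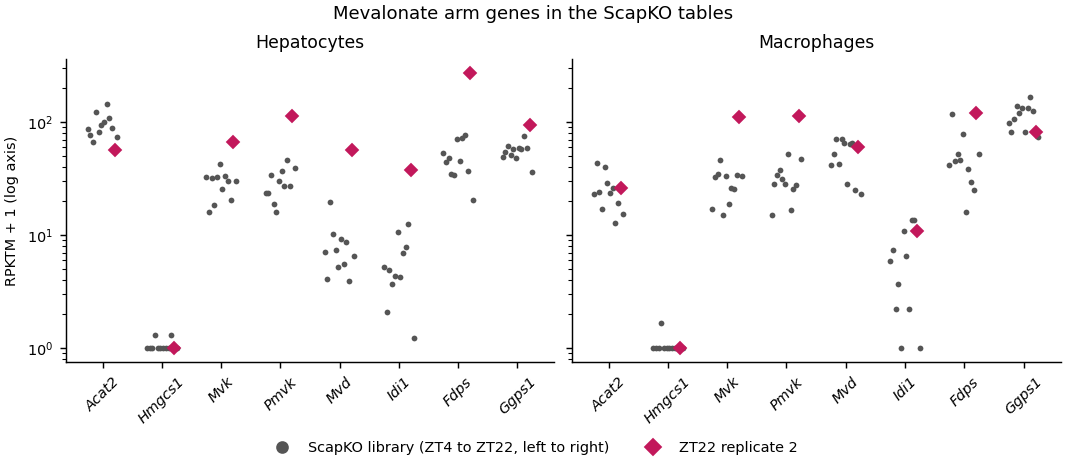
RPKTM + 1 on a log axis for each of the 8 genes in the 12 ScapKO libraries of hepatocytes and of LMs. Grey points run from ZT4 to ZT22 and the diamond is ZT22 replicate 2, which in hepatocytes holds 272 RPKTM of Fdps against at most 75.9 in the other 11 libraries.

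In the library labelled ScapKO ZT22 replicate 2, 6 of the 8 genes were above all other ScapKO hepatocyte libraries. The share of all genes for which this held was not computed. The library also had the highest macrophage (3353 RPKTM, median 808), endothelial (5258, median 1167) and stellate (2819, median 1126) marker sums of the ScapKO hepatocytes. Fdps was at 272 RPKTM there and from 19.6 to 75.9 (median 44.0) in the other 11. Pmvk was at 113 against 15.0 to 45.2 (median 26.4), and Mvd at 55.6 against 2.93 to 18.7 (median 6.12). Mvk was at 66.0 against 15.0 to 41.7 (median 29.3), Idi1 at 36.7 against 0.233 to 11.6 (median 3.95) and Ggps1 at 92.4 against 34.9 to 73.8 (median 57.1).

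Acat2 went the other way, at 56.0 RPKTM in that library and from 66.1 to 143 (median 86.9) in the others, where it was the highest of the 8 genes. Hmgcs1 was listed at 0 in 9 of the other 11 hepatocyte libraries, and in ScapKO it was not tested. By JTK_CYCLE 2 genes were rhythmic in ScapKO hepatocytes, beside 17.8% of all genes: Acat2 (exact p = 0.00126, peak ZT16) and Pmvk (exact p = 0.00313, peak ZT22). Without ZT22 replicate 2 the count was again 2. With the series entered once the count was 0, beside 5.31% of all genes.

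In ScapKO LMs, Ggps1 was the highest of the 8 genes at 111 ± 29.4 RPKTM (SD, n = 12), where Fdps stood at 54.3 ± 33.7 and Mvd at 49.9 ± 18.1. Mvk (111), Pmvk (113) and Fdps (119) were at their highest in ZT22 replicate 2, as was the hepatocyte marker sum (144639 RPKTM, median 53325). Mvd was the 1 gene called rhythmic (exact p = 0.0320, peak ZT10), beside 19.9% of all genes. The hepatocyte markers of these libraries were at 4.09% of the ScapKO hepatocyte median, across tables normalized apart.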

How the data were processed

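Ribosomal RNA was removed by the authors, stranded total RNA libraries were made, and reads were aligned to mm9 with STAR and counted over RefSeq transcripts with HOMER. Versions, and whether counting used the strand, were not given in the sources used here. The deposited values are an RPKM multiplied by 10 (RPKTM), quantile normalized by the authors, in 4 tables of 42322 transcripts, 1 for each cell type of the Control, RevDKO and RevScapTKO libraries and of the ScapKO libraries. Columns of other samples numbered 0.

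Each gene symbol was represented by its transcript of highest mean, and genes with at least 3 libraries over 5 RPKTM were kept. limma 3.58.1 (R 4.3.3, with a mean-variance trend) was run on log2(RPKTM + 1), in each cell type over its 36 libraries, with a mean for every genotype and time, and p-values were adjusted by Benjamini and Hochberg over all genes, with a threshold of 0.05. Changed rhythms were tested on the 24 h cosine and sine terms. JTK_CYCLE was rewritten with scipy 1.17.1, pandas 2.3.3 and numpy 2.4.6 under Python 3.11.15. The time series was entered 2 times, the 24 h and 18 h periods were compared, and exact p-values were multiplied by the 7 patterns. A gene was rhythmic with p under 0.05, best period 24 h, a ratio of time point means over 1.5 and at least 2 libraries over 5 RPKTM. Both programs were tested on simulated data, and figures were drawn with matplotlib 3.10.9. The libraries of a group are called biological replicates in the study's methods. The replicate numbers were not taken to pair the libraries, since no label ties them.

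Named were the 8 members, the genes of lists of neighbouring pathways with the largest or smallest change or on which a result turns, the targeted genes, neighbours within 1000 bases and the 5 genes most like the members, less items not reported here. The order of the reactions was singled out after values were seen. Members and lists were chosen with earlier results of these data known. Sequences come from RefSeq tables, in which Fdps was not matched. Alternatives were other pseudocounts, no filter, all transcripts, the replicate block, fewer genotypes, rescaling, a marker score, other rhythm tests and leaving out libraries.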

Additional observations from a re-analysis of the deposited data

How the results depend on the processing

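The counts of members lower in RevScapTKO hepatocytes stayed at 7 under all alternatives run (7 to 8 without single libraries against RevDKO). The gene and time pairs stayed at 25 to 28 of 32, the LM counts at 4 to 6 against RevDKO and 4 to 5 against Control. For RevDKO minus Control hepatocytes the count of 1 (Pmvk) became 0 with no filter and 0 to 1 without single libraries, and the LM pairs against Control went from 4 to 2 with no filter, 6 without the libraries with albumin over 10%, and 3 to 5 without single libraries. Rhythm counts in hepatocytes, with the series once, by cosine regression and with adjustment over all genes, were 1, 1 and 0 for Control (main 2), 2, 2 and 0 for RevDKO (main 3), 0, 0 and 0 for RevScapTKO (main 1) and 0, 1 and 0 for ScapKO (main 2). In LMs they were 1, 0 and 0 for RevDKO (main 1), 0, 1 and 0 for RevScapTKO (main 2) and 0, 0 and 0 for ScapKO (main 1), which became 2 with no limit on the ratio. Without single libraries the member counts ranged from 1 to 4 in Control, 2 to 3 in RevDKO, 0 to 2 in RevScapTKO and 1 to 2 in ScapKO hepatocytes, and from 0 to 1, 1 to 2, 1 to 2 and 0 to 2 in LMs of these genotypes. The cause was not tested.

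Differences that did not pass changed sign as follows. Ggps1 in RevDKO minus Control hepatocytes, -0.23, was 0.073 without RevDKO ZT4 replicate 2 (range -0.39 to 0.073). In LMs, RevDKO minus Control for Pmvk, 0.11, was -0.053 with the marker score, -0.11 without the albumin libraries and -0.10 to 0.44 without single libraries. Fdps in the same contrast, 0.10, was -0.050, -0.22 and -0.087 to 0.31. Ggps1 in RevScapTKO minus RevDKO LMs, -0.07, was 0.029 without the albumin libraries and -0.19 to 0.046 without single libraries. Of 884 single values under the other alternatives 865 kept direction and side of the threshold, and of 3852 without single libraries 3807 did. Rescaling moved the median of all genes most in RevScapTKO minus Control LMs, from -0.042 to 0.013.

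The replicate block changed none of the daily calls of members: Pmvk in RevDKO minus Control had an adjusted p of 0.0346 with the block, the hepatocyte counts were 1, 7 and 7, and the LM counts 0, 5 and 4. As a hint of pairing from the data, not the design, 24 of 36 hepatocyte and 27 of 36 LM libraries correlated best with their own number, though not every library did. Residuals of libraries with the same number correlated on average at 0.038 in hepatocytes and 0.090 in LMs, and those with other numbers at -0.019 and -0.044. Over all genes, the marker score took RevScapTKO calls in hepatocytes from 3498 to 352 against RevDKO and from 4789 to 788 against Control, and in LMs from 419 to 1079 and from 524 to 2116. The precision rests on 3 libraries per group, and depth is unknown.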
